A study of Rattus norvegicus with 2 samples.

Results

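The genes described here are 10 rat genes of the actin cytoskeleton and of the proteins that link it to the cell membrane: the actins Actb and Actg1, the thymosins Tmsb4x and Tmsb10, profilin (Pfn1), cofilin (Cfl1), the Arp2/3 subunit Arpc2, the non-muscle myosin heavy chain Myh9, and the linkers ezrin (Ezr) and moesin (Msn). They were picked by name for their roles, from 16484 annotated genes with number-only IDs among 113011 listed features. RNA was sequenced from urine of Sprague Dawley rats 8 weeks of age (postnatal day 56), with 1 library for each of the groups WT and UUO. In unilateral ureteral obstruction (UUO) the right ureter is tied off and the kidney behind it scars. WT rats had the same surgery without the ligation, and both groups were followed for 2 weeks. Whether the age given is that at surgery or at urine collection is not stated in the sources used here. Per the study's methods urine was drawn from the ureter by catheter, so neither library is voided bladder urine, and how many rats gave urine to each library is not given in the sources used here. With 1 library per group no difference below has a replicate check, no test was possible and no p-value is given. The table's abbreviated column names were read as WT and UUO, and all directions rest on that reading.

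Actin is the main filament protein of the cell cortex, and in tubule and bladder epithelium it carries the microvilli, the junctions and the cell's shape. Thymosins hold actin monomers in reserve, profilin hands them to growing filament ends, cofilin cuts old filaments, the Arp2/3 complex starts branches, and non-muscle myosin II pulls on the network. Ezrin, moesin and radixin tie filaments to membrane proteins. Ezrin is the main one in microvilli of the proximal tubule, and moesin is rich in endothelium and leukocytes.

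Of the 10 genes, 9 had a promoter entry in the RefSeq table of the GRCr8 assembly, and Actb had none. Printed here are the 250 bases before the start of the linkers Ezr and Msn and of Cfl1, which are the genes with an entry that differed most between the libraries, and of Actg1, the entry with a CArG box. They read 5′ to 3′ toward the start, on the minus strand at chr1:49416574-49416823 for Ezr, on the plus strand at chrX:65005296-65005545 for Msn, on the plus strand at chr1:212226874-212227123 for Cfl1 and on the minus strand at chr10:106120952-106121201 for Actg1. Capitals mark GC boxes (GGGCGG, either strand) and, in Actg1 alone, also 1 CArG box, the motif known to bind serum response factor.
Ezr: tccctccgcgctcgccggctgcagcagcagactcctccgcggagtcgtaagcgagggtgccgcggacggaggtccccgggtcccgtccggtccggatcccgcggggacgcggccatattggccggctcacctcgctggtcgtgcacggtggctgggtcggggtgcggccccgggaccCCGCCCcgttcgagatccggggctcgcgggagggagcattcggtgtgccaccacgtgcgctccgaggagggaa
Msn: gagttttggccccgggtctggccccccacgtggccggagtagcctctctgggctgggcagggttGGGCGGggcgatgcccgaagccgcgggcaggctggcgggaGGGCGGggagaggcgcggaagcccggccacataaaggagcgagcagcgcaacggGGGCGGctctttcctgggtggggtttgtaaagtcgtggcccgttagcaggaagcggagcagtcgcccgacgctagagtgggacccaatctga
Cfl1: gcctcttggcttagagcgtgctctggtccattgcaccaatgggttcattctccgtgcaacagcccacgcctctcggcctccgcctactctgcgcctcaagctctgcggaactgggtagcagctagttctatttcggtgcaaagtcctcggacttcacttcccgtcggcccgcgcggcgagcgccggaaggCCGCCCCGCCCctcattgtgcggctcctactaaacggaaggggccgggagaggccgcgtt
Actg1: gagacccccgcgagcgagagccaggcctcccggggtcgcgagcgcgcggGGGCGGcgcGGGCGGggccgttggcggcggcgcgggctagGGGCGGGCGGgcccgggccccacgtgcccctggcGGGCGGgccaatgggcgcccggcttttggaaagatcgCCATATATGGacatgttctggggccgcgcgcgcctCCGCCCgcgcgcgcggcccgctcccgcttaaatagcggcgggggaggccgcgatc

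The 10 entries, 2 of them for Myh9, had 46.8% to 79.2% G and C, against a median of 51.2% over 33469 promoter entries of the same length. A GC box was found in 8 of the 10 entries, against 30.5% of all promoters. The E-box CACGTG was found in 3 entries, against 5.59% of all, and the TATA box TATAAA (either strand) in 1, against 12.9%. That 1 match, in a Myh9 entry, lies on the opposite strand and 179 bases before the start. The CArG box of Actg1 lies 90 bases before the start, and 1.5% of all promoters hold one on either strand. A match says only that these letters are present. Among the genes that were 2-fold lower in UUO urine Msn had 3 GC boxes, Cfl1 had 2 and Ezr had 1. Actb, also 2-fold lower, had no entry. Among those within 2-fold Actg1 had 6, Tmsb10 had 3, Arpc2 and Pfn1 each had 2, and Tmsb4x had 0. The Actg1 promoter is that of chromosome 10, while the Actg1 level is listed on chromosome 3. Whether that level belongs to the gene of this promoter was not tested.

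Levels are given as FPKM, the fragments per kilobase of transcript and per fixed number of fragments in the library, which can be compared between genes. Differences are those of log2(FPKM + 1), UUO minus WT, and 2-fold means a difference of at least 1 in size. Of the 10 genes, 9 were above 0 in both libraries, and their levels ran from 54.4 to 2165 in WT and from 43.2 to 769 in UUO urine. Actb, Cfl1, Ezr and Msn were at least 2-fold lower in UUO urine, 5 genes were within 2-fold, and 0 were 2-fold higher. Of 9853 annotated genes that reached an FPKM of 1 in either library, 36.5% were 2-fold lower in UUO urine and 25.7% were 2-fold higher. Among the 659 annotated genes with an FPKM of at least 40 in both libraries, which is the range of these 9 genes and was chosen after their values were seen, 40.2% were 2-fold lower. The share of 44.4% of the 9 genes (4 of 9) is near that background and is not a result about the group.

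**Figure D1:**
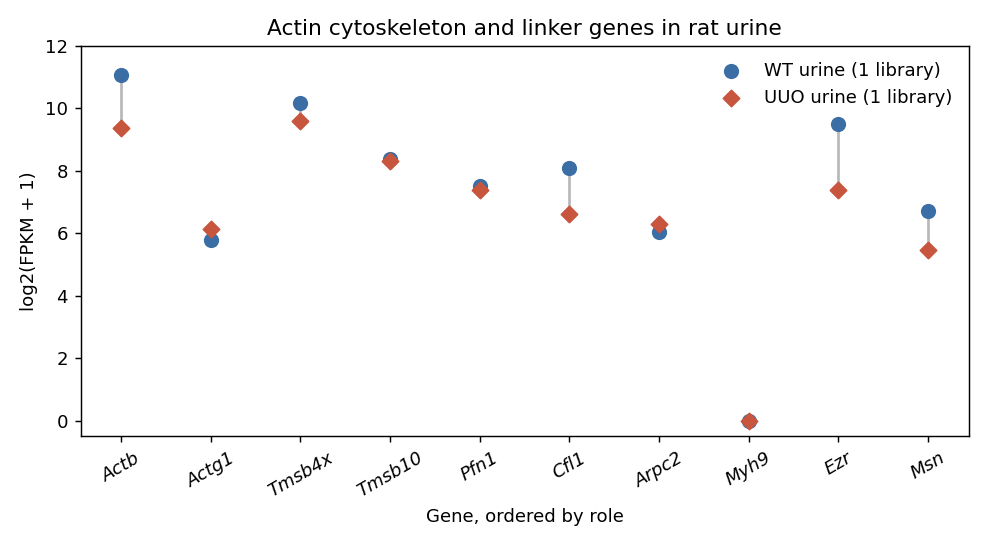
Levels of the 10 genes in urine, as log2(FPKM + 1), with 1 point for the WT library (circle) and 1 for the UUO library (diamond), joined by a grey line. Actb, Cfl1, Ezr and Msn show the wide gaps with the WT point on top, the other genes above 0 differ by less than 1 unit, and Myh9 lies at 0 in both.

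The median difference of the 9 genes was −0.59, against −0.51 for all 9853 annotated genes and −0.81 for the 7218 with an FPKM of at least 1 in both libraries. Against the first median 5 of the genes lay below and 4 above, and against the second 4 below and 5 above. The genes thus spread around the shift of the whole table, from −2.13 for Ezr to 0.34 for Actg1. The 10 genes made up 1.5% of the summed FPKM of annotated genes in WT against 0.873% in UUO urine. Haemoglobin genes held 0.950% of that sum in WT against 32.6% in UUO urine, and with these 6 genes left out the 10 genes made up 1.51% and 1.30%.

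Actb, the main cytoplasmic actin, stood at 2165 FPKM in WT against 663 in UUO urine, a difference of −1.71. The WT level was 3.27 times the UUO level. By rank among annotated genes Actb was number 8 in WT and number 22 in UUO urine, so it stayed among the most abundant transcripts of both. It is listed at chr12:15745850-15749440 on the rn5 assembly, where it held 91.7% of the FPKM of 8 overlapping features in WT against 87.3% in UUO urine. Summed over that locus the difference was −1.63.

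Actg1, the other cytoplasmic actin, stood at 54.4 FPKM in WT against 69.1 in UUO urine, a difference of 0.34 and thus within 2-fold. Its rank was 1303 in WT against 387 in UUO urine. The value needs care, because the table lists Actg1 at chr3:81982830-82602449 of rn5, a merged region of 619619 bp with 43 features, 13 of them olfactory receptor genes. RefSeq places Actg1 on chromosome 10 of GRCr8, and it is the only one of the 10 genes whose chromosome differed. RefSeq names an Actg1-like gene, Actg1l1, on chromosome 3 between the same receptor genes, and the table has no feature of that name. Between Ndufaf8 and Fscn2, the genes that flank Actg1 on chromosome 10, the table held 37 features, 0 of them annotated genes, and the highest FPKM there was 12.8 in WT against 5.45 in UUO urine. Whether the Actg1 value stands for the gene or for the related locus was not tested. The ratio of Actb to Actg1, 39.8 in WT against 9.59 in UUO urine, rests on that value.

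The thymosins and profilin were within 2-fold between the libraries. Tmsb4x, the more abundant thymosin, stood at 1156 FPKM in WT against 769 in UUO urine, a difference of −0.59. It ranked number 14 in WT and number 17 in UUO urine, where its level was above that of Actb. Tmsb10, a thymosin common in embryonic and growing cells, stood at 332 FPKM in WT against 317 in UUO urine, a difference of −0.07. Pfn1 stood at 182 FPKM in WT against 168 in UUO urine, a difference of −0.11. Tmsb10 ranked number 117 in WT and 61 in UUO, and Pfn1 number 286 and 121. Tmsb4x stands alone at its locus, and the share of the locus held by Tmsb10 and by Pfn1 was at least 90.7% in both libraries.

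Cfl1, the cofilin of non-muscle cells, stood at 270 FPKM in WT against 98.4 in UUO urine, a difference of −1.45. The WT level was 2.75 times the UUO level, and its rank was 161 in WT against 241 in UUO urine. It is listed at chr1:227799094-227803399 of rn5 and held 95.7% of its locus in WT against 88.6% in UUO urine.

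The 2 linkers were both lower in UUO urine. Ezr stood at 726 FPKM in WT against 165 in UUO urine, a difference of −2.13, the greatest in size among the 9 genes. The WT level was 4.40 times the UUO level, and Ezr went from rank 36 to rank 127. Msn stood at 103 FPKM in WT against 43.2 in UUO urine, a difference of −1.23, with a WT level 2.38 times the UUO level. Its rank was 615 in WT against 740 in UUO urine, while its percentile among annotated genes above 0 was 92.3 and 93.8, since more genes were above 0 in UUO. Both stood almost alone at their loci, chr1:48590660-48634511 for Ezr and chrX:66068402-66137461 for Msn on rn5, with at least 97.9% of the FPKM there. Msn had the lowest UUO level of the 9 genes. By the steps in the FPKM values it stands for 106 fragments for each 1000 bp of effective length. A count of 106 has a 95% Poisson interval of 87 to 128. That interval covers counting error only. It holds for 1000 bp, and the fragments behind each gene also depend on transcript length, which was not used.

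Arpc2, a core subunit of the Arp2/3 complex, stood at 65.4 FPKM in WT against 78.0 in UUO urine, a difference of 0.25. Its rank was 1042 in WT against 325 in UUO urine. Of the 9 genes, 4 (Actg1, Tmsb10, Pfn1 and Arpc2) ranked higher in UUO urine and 5 ranked lower. Ranks were counted among 8024 annotated genes above 0 in WT and 12008 in UUO urine, and as a percentile of those genes 6 of the 9 stood higher in UUO and 3 lower, with Tmsb4x and Msn turning direction.

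Myh9, the main non-muscle myosin heavy chain of many epithelial and blood cells, was listed at 0 in both libraries, with the authors' status for a feature that was not tested. A 0 in such a table can be a failed estimate, and Myl6, Pfn2, Cap2 and Col1a2 of the gene lists used here were likewise listed at 0 in both. The region given for Myh9, chr7:118465125-118941648 of rn5, spans 476523 bp and merges 20 features, 5 of them annotated genes. The features there summed to 13.3 FPKM in WT against 15.02 in UUO urine, of which Apol3l1, an apolipoprotein L family gene, held 8.34 and 9.55. No level of Myh9 can be given.

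**Figure D2:**
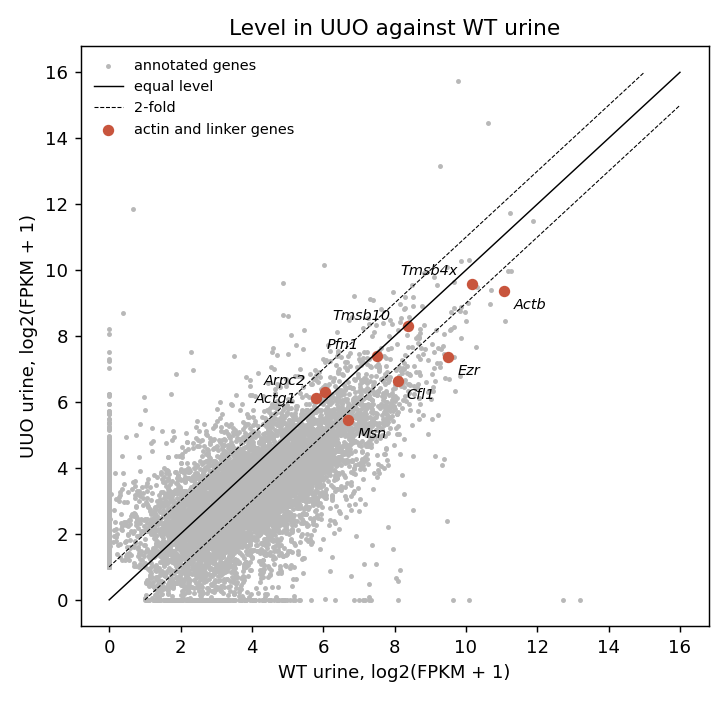
Level of annotated genes in UUO urine (vertical axis) against WT urine (horizontal axis), both as log2(FPKM + 1), with the 9 genes above 0 in red, the line of equal level and dashed lines at 2-fold. Actb, Cfl1, Ezr and Msn lie below the lower dashed line and the other 5 between the lines, all within the upper range of the grey cloud.

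A ratio between genes within a library does not move with the scaling of the library. The ratio of Cfl1 to Pfn1, cutting against supply of actin, was 1.48 in WT against 0.585 in UUO urine, so the WT ratio was 2.54 times the UUO ratio. The ratio of Ezr to Msn was 7.04 in WT against 3.82 in UUO urine, so ezrin was the more abundant linker in both, by a margin 1.85 times as great in WT. The ratio of Tmsb10 to Tmsb4x was 0.288 in WT against 0.412 in UUO urine. Ratios to Actb, chosen after the values were seen, ran both ways. For Pfn1 the ratio was 0.0841 in WT against 0.254 in UUO urine, 3.02 times as high in UUO. For Tmsb4x it was 0.534 and 1.16, and for Ezr 0.335 and 0.249. Summed over each locus, the Cfl1 to Pfn1 ratio differed 2.29-fold and the Ezr to Msn ratio 1.82-fold.

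How many of the genes pass 2-fold depends on how the libraries are scaled. FPKM of the 2 libraries are not on a settled common scale, since summed FPKM over annotated genes was 338000 in WT against 271000 in UUO urine. Scaling UUO to equal sums, to the 75th percentile or to the median ratio multiplies its values by 1.24 to 1.86 and adds 0.32 to 0.89 on the log2 scale to every abundant gene. Under the 5 scalings tried, Ezr alone stayed past 2-fold lower in each, with its difference between −1.82 and −1.24. Actb ranged from −1.39 to −0.81, Cfl1 from −1.14 to −0.56 and Msn from −0.93 to −0.36, all below 0. Tmsb10 and Pfn1 changed sign, from slightly lower as deposited to higher under all 5, and Tmsb4x changed sign under 4 of them. Under the median ratio Actg1 and Arpc2 passed 2-fold higher, at 1.23 and 1.14. They also did under equal sums over annotated genes without haemoglobin, at 1.20 and 1.11. At the 75th percentile Actg1 passed at 1.06 and Arpc2 did not, at 0.97. The order of the genes, with Ezr, Actb, Cfl1 and Msn lowest and Arpc2 and Actg1 highest, is the same under every such scaling. That follows from the method, since each scaling multiplies all UUO values by the same factor, and it is no check of the order.

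**Figure D3:**
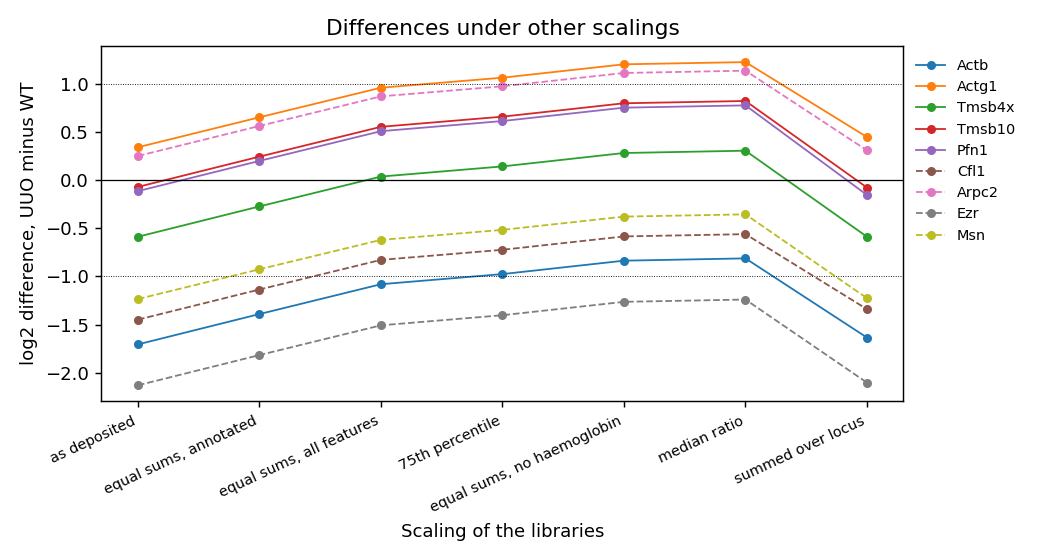
Difference of log2(FPKM + 1), UUO minus WT, for the 9 genes above 0 (1 line each) as deposited, under 5 scalings of the UUO library, and with FPKM summed over each listed locus. Dotted lines mark 2-fold. The lines shift together, Ezr stays under the lower dotted line throughout, and Tmsb4x, Tmsb10 and Pfn1 cross 0.

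The other genes of the actin pathway were followed in 6 lists. Of 69 genes 68 were in the table, and 64 reached an FPKM of 1 in either library. Of these, 25 (39.1%) were 2-fold lower and 8 (12.5%) higher in UUO urine, against 36.5% and 25.7% of all annotated genes. With the members left out, 21 of 55 were lower and 8 higher, a share of 38.2% lower. The median difference of the 64 genes was −0.66, against −0.51 for all annotated genes. For the 57 above 0 in both libraries it was −0.78, near the −0.81 of annotated genes with an FPKM of at least 1 in both. The lists were chosen with earlier results of these data known, and these counts describe 2 libraries.

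Of the 9 Arp2/3 subunits and isoforms, all above 0 in both libraries, 2 were 2-fold lower and 0 higher, with a median of −0.29, against 36.5% lower, 25.7% higher and a median of −0.51 for all annotated genes. Arpc3 stood at 131 FPKM in WT against 35.1 in UUO urine (−1.88), and Arpc5l had 32.1 and 12.1 (−1.34). Actr2, an actin-related core subunit, had 23.8 and 44.3 (0.87), Actr3 had 42.2 and 44.9 (0.09), and Arpc1b had 93.6 and 111 (0.24). Arpc4 (−0.91), Arpc5 (−0.64) and Arpc1a (−0.29) were also within 2-fold. In UUO urine the 9 transcripts ran from an FPKM of 12.1 to 111.

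Of 10 genes of the membrane linker list that passed the limit, 6 were 2-fold lower (60%) and 3 higher (30%). All annotated genes gave 36.5% and 25.7%. The 6 were Ezr, Msn, Rdx, Nherf1, Nherf2 and Ankrd13a. Ankrd13a, at 158 in WT against 38.8 in UUO urine (−2.00), was counted by its place in the list, and a linker role was not checked. The list's median was −1.10 as deposited and −0.24 under the median ratio. Nherf1, the scaffold that ezrin binds under the microvillus membrane, stood at 1235 FPKM in WT against 204 in UUO urine, a difference of −2.59. It was the most abundant gene of the list in both libraries. Ezr and Nherf1 were thus the 2 lowest of the list by difference. Radixin (Rdx), the third member of the ezrin family, had 26.2 in WT against 12.1 in UUO urine, a difference of −1.06, so all of Ezr, Msn and Rdx were past 2-fold lower as deposited. The 3 linkers that were higher, Cd44, Pdpn and Spn, were listed at 0 in WT, with an FPKM of 12.4, 4.35 and 1.88 in UUO urine. Pdpn and Spn carried the authors' status for a feature not tested. Spn lay near the UUO level of 3 fragments per 1000 bp (1.23). Cd44 and podoplanin (Pdpn) are membrane proteins that ezrin family proteins bind, and Spn is a leukocyte sialoglycoprotein.

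For non-muscle myosin II, 4 of 8 genes (50%) were 2-fold lower and 1 (12.5%) was higher, with a median of −1.06, against 36.5% lower and 25.7% higher among all annotated genes. The heavy chain Myh10 stood at 19.0 FPKM in WT against 3.64 in UUO urine, a difference of −2.11. The heavy chain Myh14 had 86.2 and 65.1, a difference of −0.40, and was the more abundant of the 2 in both libraries. The kinase Mylk, which switches on the light chains, had 109 in WT against 10.9 in UUO urine, a difference of −3.20. The light chain Myl12a had 123 and 134 (0.12), while the light chain Myl12b had 165 in WT against 38.4 in UUO urine (−2.07). The light chain Myl9 was listed at 0 in WT with 13.6 in UUO urine.

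Of all annotated genes 36.5% were 2-fold lower and 25.7% higher. Among actin isoform and exchange genes 2 of 6 (33.3%) were 2-fold lower and 0 higher, with a median of −0.35, and Cap1, which recycles actin monomers, was at 73.2 in WT against 35.0 in UUO urine (−1.04). Among severing and disassembly genes 3 of 11 (27.3%) were lower and 2 higher, with a median of −0.52, and the microvillus protein Vil1 was at 12.5 and 3.62 (−1.55). Among capping, bundling and crosslinking genes 8 of 20 (40%) were lower and 2 higher, with a median of −0.70. There tropomyosin Tpm1 was at 622 and 145 (−2.09), and the crosslinker Flna at 2.09 and 14.3 (2.31).

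**Figure D4:**
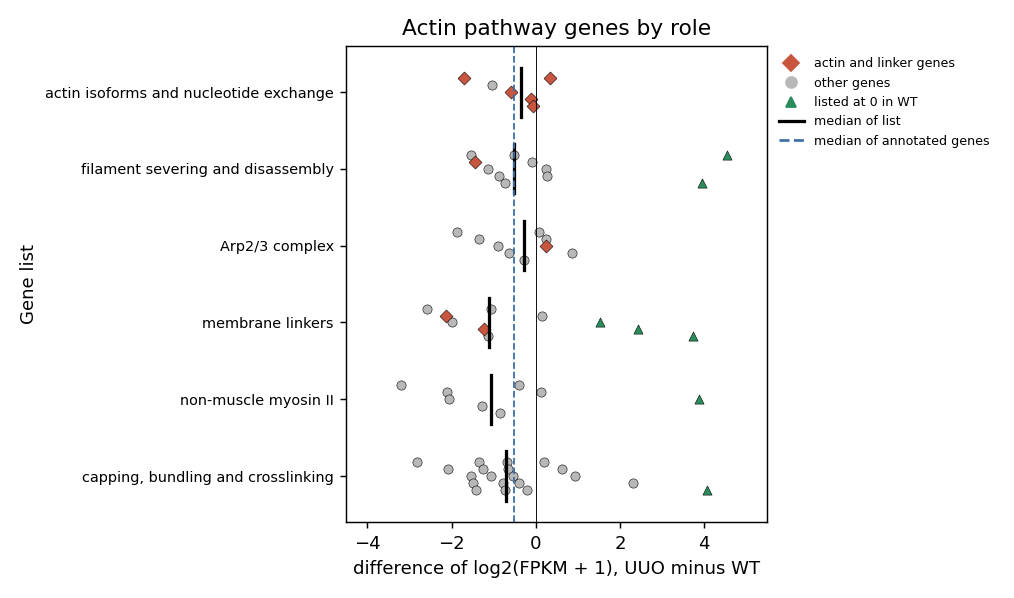
Difference of log2(FPKM + 1), UUO minus WT, for the 64 genes of the 6 actin lists that passed the limit, 1 row per list and 1 point per gene, with the genes of the main group as red diamonds and genes listed at 0 in WT as green triangles. Black bars are list medians, from −1.10 (membrane linkers) to −0.29 (Arp2/3 complex), and the dashed line is the median of annotated genes, −0.51. Vertical spread within a row has no meaning.

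Genes listed at 0 in WT urine made up 7 of the 8 that were 2-fold higher. With 1 added before the log, a gene at 0 in WT and over the limit is 2-fold higher by definition. Of all annotated genes 2534 were 2-fold higher, and 1903 over the limit were listed at 0 in WT. The 7 are thus not a result about the actin pathway. Across all pathway genes 7 had a listed 0 in WT but a level in UUO urine, with an FPKM from 1.88 to 22.5, and 0 the other way round. Of the 64 genes over the limit these 7 (10.9%) were listed at 0 in WT, against 19.3% of all annotated genes over it. Besides those named, they were Gmfg (22.5), Pls3 (15.8) and Coro1a (14.4). At the depth recovered from the FPKM steps, a level of 22.5 would stand for 48 fragments per 1000 bp in the WT library. Coro1a, Gmfg, Spn and Lcp1 are known mainly from blood cells. Of these 4, grouped after their values were seen, 3 were listed at 0 in WT, while Lcp1, a leukocyte plastin, went the other way with 150 in WT against 20.3 in UUO urine (−2.82).

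Markers of other cell types differed between the libraries as well, beside a background in which 8024 of 16484 annotated genes were above 0 in WT and 12008 in UUO urine. Leukocyte markers summed to 13.5 FPKM in WT against 190 in UUO urine, with 2 of 13 above 0 in WT and 13 in UUO, of which 12 reached an FPKM of 1 in either library. Platelet markers summed to 0 in WT against 217 in UUO urine, of which Pf4 gave 182, and 4 of 5 reached an FPKM of 1, in UUO alone. Red cell markers summed to 3089 and 86914, with 6 and 7 of 7 above 0. Kidney tubule markers summed to 221 in WT against 158 in UUO urine, with 9 of 9 above 0 in both. That sum joins unlike genes. Lrp2 (−2.50), Slc34a1 (−2.22) and Cubn (−1.63) were 2-fold lower, Calb1 (1.43) was 2-fold higher and 5 were within 2-fold. These shares are 33.3% lower and 11.1% higher, against 36.5% and 25.7% of all annotated genes. Urothelium markers summed to 1174 and 1691, with 6 and 7 of 7 above 0. They were mixed too: Upk2 (1.02) and Krt5, listed at 0 in WT, were 2-fold higher. Krt20 (−1.02) was 2-fold lower, and 4 were within 2-fold. Those shares are 28.6% higher and 14.3% lower, against 25.7% and 36.5% of all annotated genes. Fibroblast and smooth muscle markers summed to 29.3 and 48.5, with 3 and 8 of 9 above 0. The share of each cell type in the levels of the actin and linker genes was not tested. Per the study's methods urine was spun in a centrifuge before storage and again before RNA isolation. How much of the RNA came from whole cells is not given. In such bulk RNA fewer cells of a type, less RNA per cell and RNA from outside cells cannot be told apart.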

How the data were processed

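Urine RNA was measured in 2 libraries, 1 of sham-operated (WT) and 1 of UUO rats. Per the study's methods and the submitters' processing notes, the authors removed ribosomal RNA and made strand-specific libraries. The study's methods describe these library steps for kidney RNA and give no separate ones for urine RNA. By the same sources, read pairs were aligned to rn5 with TopHat2 2.0.9 and Bowtie2 2.0.6, assembled with Cufflinks 2.1.1 and compared with Cuffdiff 2.1.1. The deposited table gives 1 FPKM per feature and library, normalised by the authors. Its columns of ratios, p-values and q-values hold the authors' own comparison and were not used. The table names its conditions by abbreviations that are no sample titles. They were read as UUO and WT from the series' subject and from headings in the study's lists, and if they were the other way round every direction would turn.

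Symbols came from RefSeq (GRCr8), which matched 16329 of 16484 number-only IDs (99.1%). RefSeq names 49 further loci after the members as copies, 0 of them in the table under such IDs, so reads of near-identical copies are uncertain. Differences were those of log2(FPKM + 1), counted from 1 in size among genes that reached an FPKM of 1 in either library. Where entries overlap, the table divides fragments among them. Depth was recovered from FPKM steps of assembled features alone at their locus: 93.5% of 186 values in WT and 99.3% of 3530 in UUO came within 0.1 of a whole number, at normalising totals of 2116000 and 2444000 fragments. Then 3 fragments per 1000 bp give an FPKM of 1.42 (WT) or 1.23 (UUO). Named genes are the 10 members, their families, the 2 genes at each end of every list, genes listed at 0 and the abundant feature at the Myh9 locus. Named beyond that rule are Myl12b, Nherf2, Ankrd13a and some cell type markers. One further gene list is not reported here. Members, lists and settings were chosen with earlier results of these data known. Python 3.11.15, pandas 2.3.3, numpy 2.4.6 and scipy 1.17.1 were used, and the functions were tested on simulated data.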

Additional observations from a re-analysis of the deposited data

Results flagged for a closer look

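At the loci of the members, 5 noncoding features, which entered the text above only through the sums over a locus, had an FPKM over 1 in UUO urine and at or near 0 in WT urine. At the Ezr locus NONRATT004224 was at 3.54 in UUO and 0.588 in WT urine. At the Cfl1 locus NONRATT002963 was at 2.43 in UUO and listed at 0 in WT urine. At the Arpc2 locus NONRATT056753 was at 1.53 and 0.0963, and NONRATT056756 at 1.19 and listed at 0. At the Myh9 locus NONRATG026907 was at 1.13 in UUO and listed at 0 in WT urine. Most of these levels lie close to the FPKM of 3 fragments per 1000 bp, 1.42 in WT and 1.23 in UUO urine, and none has a replicate.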

How the results depend on the processing

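No paired analysis was possible because either group holds a single library, and no library could be left out. As deposited, 4 members were 2-fold lower and 0 higher, with a median of −0.59, and 6 of the 6 lists had a median below 0. With summed FPKM made equal over all features, 2 were lower, the median was 0.037 and 3 lists were below 0. With the median ratio the values were 1 lower, 2 higher, 0.31 and 2 lists. At the 75th percentile they were 1 lower, 1 higher, 0.14 and 2 lists. With equal sums over annotated genes without haemoglobin, a scaling added after the data had been seen, they were 1 lower, 2 higher, 0.28 and 2 lists. With a 4-fold limit 1 member (Ezr) was lower. The median of all annotated genes moved along, from −0.51 as deposited to 0.29 under the median ratio, where 16.8% of them were 2-fold lower and 35.5% higher. Pseudocounts of 0.1 and 10, sums over the locus and equal sums over annotated genes kept the members' counts within 1.5-fold, as did leaving out Actg1, which gave a median of −0.91. Of the recomputed values 95 moved and 130 did not. Depth limits low genes, while the levels of members above 0 stand for at least 106 fragments per 1000 bp. For 1000 bp of effective length that is a counting error of at most 19.5%, and it is greater for a shorter transcript.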
